A study of Mus musculus with 82 samples.

Results

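Nascent RNA of 7 immediate early genes, Fos, Jun, Junb, Egr1, Ier2, Atf3 and Srf, was examined in V6.5 mouse embryonic stem (ES) cells. The genes were chosen by name, and they are 7 of the 23110 RefSeq genes of at least 1000 bp that were counted. The labels name no engineered allele and no stimulus, and all cells were grown in serum with leukaemia inhibitory factor on gelatin. An effect of handling before the run-on was not tested. AGTuC labels RNA in bulk nuclei by a run-on with click-compatible nucleotides (2 libraries, both of batch Exp125c). inAGTuC is the same run-on in intact nuclei with less of the detergent sarkosyl (4 libraries of 3 batches), and scGRO-seq is its single-cell form (2494 cells in 35 libraries of 10 batches). Because both AGTuC libraries are of 1 batch and no other assay is in it, assay and batch cannot be told apart in any comparison with AGTuC. The labels do not say whether libraries came from separate cultures, so p-values measure the spread between these libraries or batches, which may be technical.

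The members lie, on GRCm38, at chr12:85473890-85477274 on the plus strand (Fos), chr4:95049036-95052222 on the minus strand (Jun), chr8:84976909-84978748 on the minus strand (Junb), chr18:34861207-34864956 on the plus strand (Egr1), chr8:84661331-84662852 on the minus strand (Ier2), chr1:191170296-191183333 on the minus strand (Atf3) and chr17:46546839-46556162 on the minus strand (Srf). Jun, Junb and Ier2 have 1 exon, and the shortest gene, Ier2, spans 1522 bp, against 13038 bp for Atf3. Each read after removal of duplicates, called a UMI here for its unique molecular identifier, was placed by the 3′ end of the RNA. Sense UMIs were counted in the start-site window (500 bp on either side of the start site), in the body (the rest of the gene) and in the 5 kb past the gene end, cut to 450 bp for Srf by the next gene on its strand. The start site of a gene is the outermost start among its curated RefSeq transcripts.

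Immediate early genes are transcribed within minutes of a signal without new protein synthesis. Fos, Jun and Junb encode subunits of the AP-1 transcription factor, and Atf3 encodes a related bZIP factor of the stress response. Egr1 encodes a zinc-finger factor, Ier2 a nuclear protein of the early response, and Srf the serum response factor, which binds the CArG boxes of many of these genes. At such genes RNA polymerase II starts transcription and then pauses shortly after the start site, and its release into the gene body is a regulated step. Run-on assays add labelled nucleotides to RNA held by engaged polymerase, so a read marks where a polymerase stood. Paused polymerase is known to run on poorly unless detergent removes the factors that hold it.

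The 150 bases before the start site are given for Fos, Jun, Junb, Atf3 and Srf, since the window around the start site that they adjoin is 1 of the regions compared. They are RefSeq sequence on GRCm38.p6, 5′ to 3′ on the strand of the gene, at chr12:85473740-85473889 for Fos, chr4:95052223-95052372 for Jun, chr8:84978749-84978898 for Junb, chr1:191183334-191183483 for Atf3 and chr17:46556163-46556312 for Srf. Capitals mark a TATA box, a CCAAT box, a CArG box or a GC box on either strand. The promoter of Egr1 was not analysed here, and Ier2 had no entry.
Fos: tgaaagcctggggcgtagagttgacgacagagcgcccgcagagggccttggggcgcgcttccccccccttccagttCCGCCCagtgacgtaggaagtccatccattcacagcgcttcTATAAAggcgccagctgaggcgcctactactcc
Jun: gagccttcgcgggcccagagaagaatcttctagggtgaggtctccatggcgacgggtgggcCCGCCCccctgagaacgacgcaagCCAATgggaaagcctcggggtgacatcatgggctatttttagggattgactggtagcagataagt
Junb: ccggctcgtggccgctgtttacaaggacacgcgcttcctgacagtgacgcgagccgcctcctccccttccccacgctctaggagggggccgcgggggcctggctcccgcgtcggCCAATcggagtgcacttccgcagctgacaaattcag
Atf3: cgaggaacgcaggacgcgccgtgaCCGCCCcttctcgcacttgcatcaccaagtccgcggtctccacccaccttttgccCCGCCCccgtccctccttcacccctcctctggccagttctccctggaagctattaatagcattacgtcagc
Srf: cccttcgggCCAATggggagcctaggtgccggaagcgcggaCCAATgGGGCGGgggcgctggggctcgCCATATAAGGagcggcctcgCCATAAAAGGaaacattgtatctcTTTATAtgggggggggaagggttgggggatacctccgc

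Motifs were searched on both strands in the 250 bases before the start site, together with the cAMP response element (TGACGTCA) and the AP-1 site (TGANTCA). The TATA box (TATAAA) of Fos lies at -33 to -28, and that of Srf at -38 to -33 on the other strand. This motif is in 12.4% of the 32851 promoters of the same length. Srf itself holds a pair of CArG boxes, at -82 to -73 and at -62 to -53, and a CArG box is in 1.47% of promoters. Atf3 holds GC boxes (GGGCGG) only, a motif found in 32.7% of promoters. A CCAAT box is in 33.8% of promoters, at -65 to -61 in Jun, at -36 to -32 in Junb, and at -141 to -137 and -109 to -105 in Srf. Neither the cAMP response element (1.55% of promoters) nor the AP-1 site (6.75%) was found in these letters in any of the 5 windows.

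Levels are given as CPM, the UMIs in 1000000 UMIs of the same library or batch. After removal of reads that libraries share, the AGTuC libraries held 2231837 and 4755740 UMIs, the inAGTuC libraries 623265 to 1462003 and the scGRO-seq batches 220612 to 4919586. The 2494 cells carried 253 cell barcodes, 224 of which were used in more than 1 of the 35 libraries, and 29.3% of the reads of these libraries had a copy with the same barcode and UMI in another library and were dropped. All 6 ES cell markers examined (Pou5f1, Sox2, Nanog, Esrrb, Zfp42 and Tdgf1) had UMIs in each assay. Of the 5 fibroblast markers, Col1a2 and Col3a1 were at 0 in AGTuC, and the sum of the 5 was 4.03 to 5.05 CPM there, 8.93 to 21.9 in inAGTuC and 11.2 to 36.1 in scGRO-seq. Primitive endoderm markers summed to 18.7 to 20.6, 17.9 to 49.9 and 8.41 to 51.1 CPM. The part of other cells in the results was not tested. Reads on the wrong strand were scarcer in AGTuC, where the median gene with at least 10 body UMIs had an antisense count of 8.33% of its sense count, than in inAGTuC (57.4%) or scGRO-seq (53.2%). Summed over all genes, the antisense count was 21.3%, 48.7% and 45.2% of the sense count. Antisense UMIs are therefore given for the inAGTuC body of Fos, Junb and Ier2 and for body and cell counts of scGRO-seq. None are given beside UMI counts of these assays in the window or past the gene end.

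The 7 genes together had 536.3 and 520.8 CPM over all 3 regions in the AGTuC libraries, against 42.6 to 69.4 in inAGTuC and 29.9 to 106.9 in scGRO-seq. Their pooled start-site window was higher in AGTuC than in inAGTuC by 7.02-fold for Fos to 38.2-fold for Junb. For 7 of 7 members both AGTuC libraries lay above all 4 inAGTuC libraries, as was so for 85.8% of genes with at least 10 UMIs in that window. Against the 10 scGRO-seq batches the same was so for 6 of 7 members, all but Fos, and for 74.4% of such genes. The members shared this with most genes. In such sums over many nuclei, more transcribing cells and more polymerases in each cell cannot be told apart.

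In AGTuC, Junb had the most UMIs in the start-site window, whereas Ier2 had more in inAGTuC (23 against 9 UMIs) and in scGRO-seq (31 against 11). Its AGTuC libraries had 210 and 341 UMIs there, or 94.1 and 71.7 CPM. The 4 inAGTuC libraries had 3, 3, 1 and 2 UMIs, or 4.81, 3.65, 0.684 and 1.37 CPM. The scGRO-seq batches ran from 0 to 1.98 CPM with a median of 0. Every AGTuC library was thus well above every library or batch of the other assays, which overlapped each other. The pooled window was 38.2-fold higher in AGTuC than in inAGTuC and 83.1-fold higher than in scGRO-seq.

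Ier2 came next in AGTuC, with 109 and 295 UMIs in the AGTuC libraries (48.8 and 62.03 CPM). The inAGTuC libraries had 2, 4, 8 and 9 UMIs (3.21, 4.87, 5.47 and 6.18 CPM), and the scGRO-seq batches ran from 0 through a median of 2.78 to 13.6 CPM. The groups of AGTuC did not overlap the others, and the pooled fold was 10.97 over inAGTuC and 21.6 over scGRO-seq.

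Fos, the partner of Jun in AP-1, held 12 and 33 UMIs in its window in AGTuC (5.38 and 6.94 CPM). In inAGTuC it had 0, 2, 1 and 1 UMIs (0, 2.43, 0.684 and 0.687 CPM). In the scGRO-seq batches it ran from 0 to 8.29 CPM with a median of 0. The highest scGRO-seq batch, Exp160, rests on 3 UMIs and lay above both AGTuC libraries. Jun had 19 and 67 UMIs in AGTuC (8.51 and 14.1 CPM) and 1, 1, 1 and 2 in inAGTuC, a 10.7-fold difference when pooled. Egr1, Atf3 and Srf were 8.43-fold, 8.12-fold and 8.12-fold higher in AGTuC than in inAGTuC, with 54, 26 and 65 UMIs in AGTuC.

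Within the window, AGTuC reads of most members stood in a narrow stretch after the start site. Of the 1231 AGTuC UMIs in the 7 windows, 755 lay in the first 100 bp (61.3%, 95% Wilson interval 58.6 to 64.01%). In inAGTuC it was 17 of 52 UMIs (32.7%, 21.5 to 46.2%), and in scGRO-seq 15 of 87 (17.2%, 10.7 to 26.5%). These intervals, like all others here, cover counting error only, since UMIs of 1 library are not independent samples. Ier2 alone gave 12 of the 17 UMIs and 10 of the 15, while Junb and Ier2 gave 350 and 237 of the 755. The pooled shares thus weigh the members differently in each assay. The share of Ier2 itself was 58.7% in AGTuC, 52.2% in inAGTuC and 32.3% in scGRO-seq.

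The position differed between members. The 20 bp bin with most AGTuC UMIs was 20 to 40 bp after the start site for Fos (22 UMIs) and Egr1 (16 UMIs), 40 to 60 bp for Ier2 (115 UMIs), and 60 to 80 bp for Jun (49 UMIs) and Junb (199 UMIs). For these 5 genes the bin was the same in both AGTuC libraries, with a tie in replicate 1 of Fos. Atf3 had 1 of its 26 UMIs in the first 100 bp and 19 between 100 and 200 bp, with a median downstream distance of 154 bp. Srf was the most dispersed, with 38.5% of its UMIs in the first 100 bp, and its highest bin was 280 to 300 bp in AGTuC replicate 1 but 20 to 40 bp in replicate 2. For Atf3 too the highest bin differed between the replicates, with 2 and 4 UMIs in it.

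Jun had the most antisense reads before the start site, where divergent transcription leaves promoters, with 62 AGTuC UMIs against 86 sense UMIs in the window. Atf3 had 35 antisense UMIs against 26 sense UMIs, so that its divergent reads outnumbered its sense ones. Junb had only 19 against 551, Ier2 16 against 404, Fos 16 against 45, Egr1 5 against 54 and Srf 20 against 65. The gene with the most sense UMIs in its window was thus not the one with the most antisense UMIs before it.

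**Figure D1:**
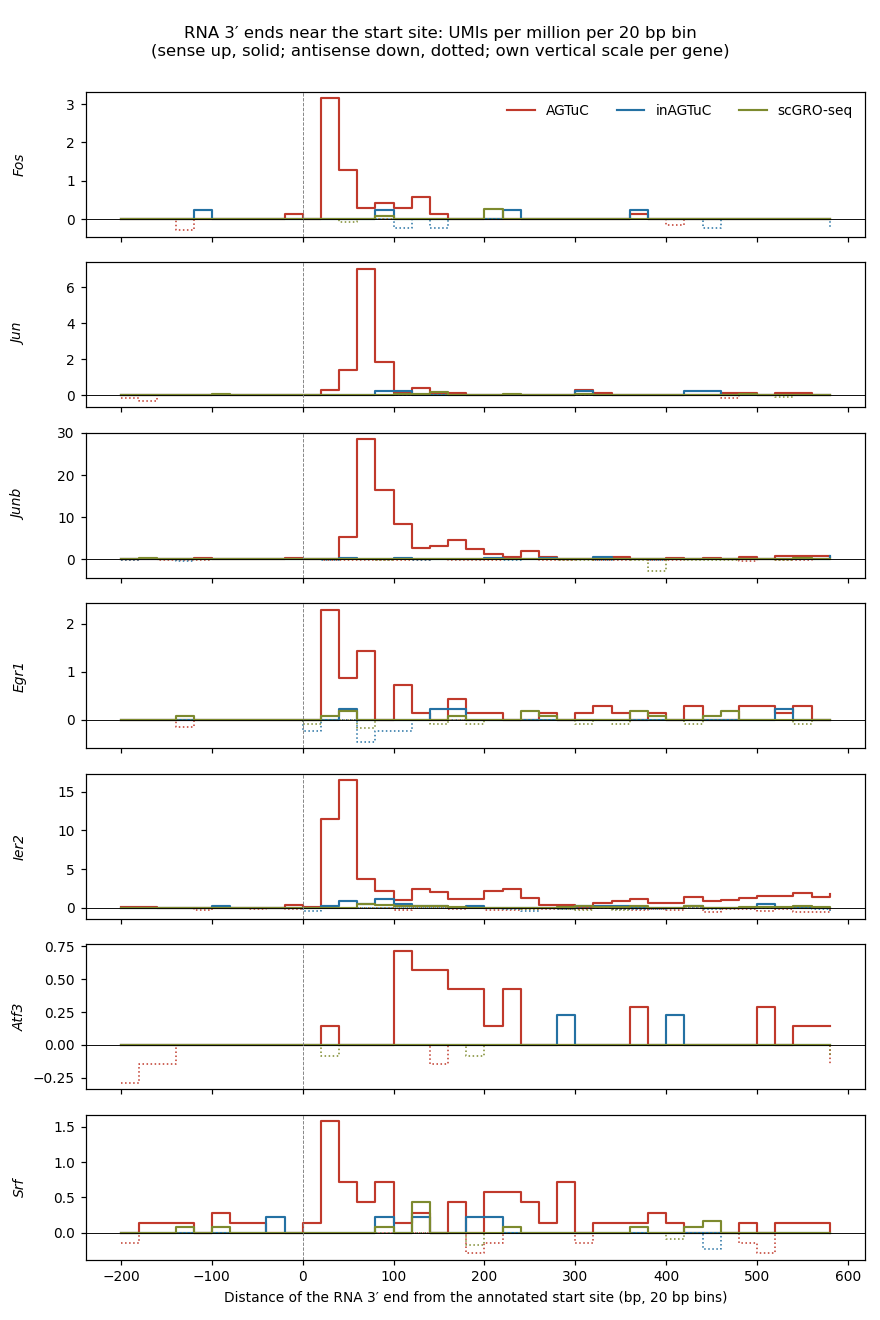
RNA 3′ ends around the annotated start site of the 7 genes, as CPM in 20 bp bins against distance in bp, with sense reads upward (solid) and antisense reads downward (dotted) and 1 vertical scale per gene. AGTuC shows a sense peak within 100 bp of the start site at Fos, Jun, Junb, Egr1 and Ier2, and that of Atf3 lies between 100 and 200 bp.

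The share of reads in the start-site window, among those in window and body, does not depend on the level of the gene. It does depend on gene length, since evenly spread reads alone give a higher share in a shorter gene. In AGTuC it was highest for Fos, at 88.2% (76.6 to 94.5%), followed by Junb at 77.2% (73.95 to 80.1%), Jun at 62.8% (54.4 to 70.4%), Egr1 at 50.9%, Ier2 at 39.9% (36.9 to 42.9%), Atf3 at 38.8% and Srf at 34.4%. All 7 lay above 30.04%, the median of the 11611 genes with at least 10 AGTuC UMIs in window and in body. Fos, with 6 body UMIs, does not meet that rule. A short body raises the share, so a median over genes of other lengths is no measure of pausing at the members. Per kb, the pooled window of Fos was 21.6 times its body in AGTuC, 0.607 times in inAGTuC and 1.01 times in scGRO-seq. In inAGTuC the share was 17.4% for Fos, 35.7% for Jun, 32.1% for Junb, 22.2% for Egr1, 8.70% for Atf3 and 15.2% for Srf. In scGRO-seq the same genes had 25.9%, 29.6%, 25.6%, 22.7%, 3.57% and 8.33%. Without stacks of reads in their bodies, described below, Atf3 had 5.88% and Srf 12.7%. Ier2 went the other way, with 60.5% (44.7 to 74.4%) in inAGTuC and 58.5% (45.1 to 70.7%) in scGRO-seq. Its body of 1022 bp is about as long as the window, so evenly spread reads would split about equally. Both intervals include an equal split, so these shares alone do not show pausing. In the AGTuC libraries the Ier2 window had 48.8 and 62.03 CPM per kb, below 100.4 and 78.2 in its body. Under the same rule the median was 7.76% over 1806 genes in inAGTuC and 5.56% over 4810 genes in scGRO-seq. Of the members, Ier2 alone met the rule in inAGTuC.

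**Figure D2:**
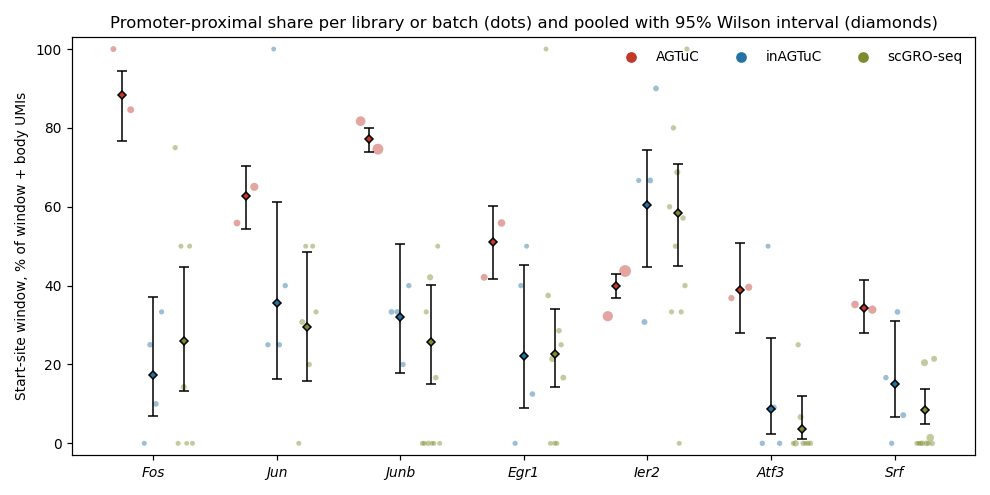
Start-site window UMIs as a percentage of window and body UMIs for each gene, with a dot per library (AGTuC and inAGTuC) or batch (scGRO-seq) and diamonds for the pooled share with its 95% Wilson interval. Fos, Junb and Jun have pooled AGTuC shares of 88.2%, 77.2% and 62.8%, and Ier2 alone has a lower pooled share in AGTuC than in the other assays.

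Whether the ratio of window to body differs between assays was tested with limma over all genes, as the interaction of region and assay with the library or batch as a block. Between AGTuC and inAGTuC, 46.5% of 12333 genes were called higher in AGTuC and 0.47% lower, at an adjusted p under 0.05 over all genes tested. Of the 7 members, all tested, 2 were called higher, Fos and Junb. The log2 difference of the ratio was 5.23 ± 0.97 (SE) for Fos (limma adjusted p = 0.000647) and 2.81 ± 0.89 for Junb (limma adjusted p = 0.0145). The other 5 were not called, at 1.77 for Atf3, 1.35 for Egr1, 1.35 for Srf, 0.99 for Jun and -1.50 for Ier2 (SE 0.94 to 0.99). The median over all genes was 2.18, and 2 of 7 members lay above it. The Fos value rests on a body with 0 UMIs in AGTuC replicate 1 and depends on the small count added before taking logs. It rests as well on the inAGTuC body of Fos, 5.07-fold higher when pooled, with 19 sense and 14 antisense UMIs. What part of that body count is background was not tested, so the value is no measure of the window alone. Without AGTuC replicate 1 neither gene was called, at a log2 difference of 4.14 for Fos (limma adjusted p = 0.0699) and 2.51 for Junb (limma adjusted p = 0.210), and without replicate 2 Fos alone was, with Junb at 3.11 (limma adjusted p = 0.128). With 1 AGTuC library left, it is assumed to vary like the libraries of the other assay, from which the spread is taken, here and in the fits below. The share of all genes called in either direction also fell, from 46.99% to 1.91% and 5.91%.

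Against scGRO-seq, 50.1% of 12928 genes were called higher in AGTuC and 0.998% lower, with a median log2 difference of 2.04. Of the 7 members 3 were called higher, namely Fos at 4.26 ± 0.93 (limma adjusted p = 0.000566), Junb at 3.50 ± 0.81 (limma adjusted p = 0.00092) and Srf at 2.07 ± 0.88 (limma adjusted p = 0.0477). Atf3 (1.59), Jun (1.16), Egr1 (1.13) and Ier2 (-0.92) were not called. The scGRO-seq body of Fos, part of its ratio, had 20 sense and 11 antisense UMIs. The Srf call is at the edge of the threshold, and it was lost under 10 alternatives, with an adjusted p of 0.0511 to 0.416. Without AGTuC replicate 1 Junb alone was called, and Fos was at 3.11 (limma adjusted p = 0.0667). With all scGRO-seq batches, or libraries in place of batches, Fos alone was called, and Junb was at 2.80 and 2.38 (limma adjusted p = 0.0722 and 0.0504).

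Between inAGTuC and scGRO-seq 0% of 8290 genes were called higher and 0% lower in limma, with 330 genes at an unadjusted p under 0.05. Of the 6 members tested 0 were called, and their log2 differences ran from -1.01 (Fos, SE 0.77) to 0.71 (Srf, SE 0.77). The standard errors, 0.73 to 0.78, limit what this comparison could show for a single member.

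**Figure D3:**
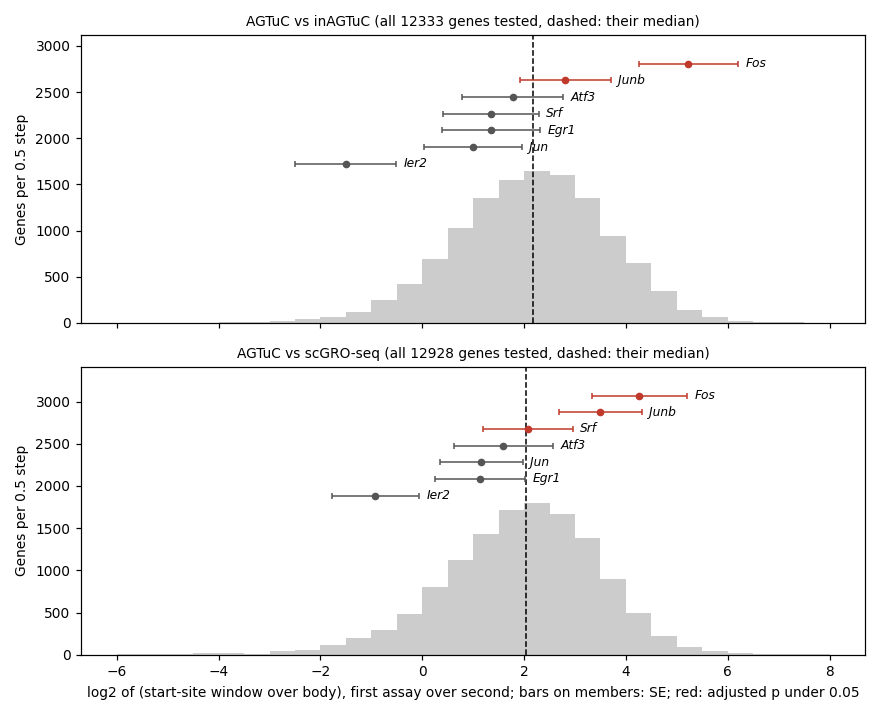
Distribution over all genes tested of the log2 difference between assays in the ratio of start-site window to body, in steps of 0.5, with the members marked with their SE and drawn in red where the adjusted p is under 0.05. Fos lies to the right of the dashed median of all genes (2.18 against inAGTuC and 2.04 against scGRO-seq), and Ier2 lies below 0 in both.

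The body of Ier2, where elongating polymerase is read, differed most of all members. Its AGTuC libraries had 229 and 380 body UMIs, or 102.6 and 79.9 CPM. In inAGTuC there were 1, 9, 4 and 1 UMIs, or 1.60, 10.95, 2.74 and 0.687 CPM, beside 1, 1, 5 and 2 antisense UMIs. In scGRO-seq the batches ran from 0 through a median of 3.38 to 9.07 CPM. Both AGTuC libraries lay above all others, and in limma the log2 level was 4.73 ± 0.66 higher than in inAGTuC (adjusted p = 0.0028) and 5.20 ± 0.44 higher than in scGRO-seq (adjusted p = 2.13e-06). As the window rose less than the body, the ratio of window to body of Ier2 was not higher in AGTuC.

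Junb had 47 and 116 body UMIs in AGTuC (21.1 and 24.4 CPM). It had 6, 6, 4 and 3 in inAGTuC (9.63, 7.30, 2.74 and 2.06 CPM), beside 0, 2, 8 and 2 antisense UMIs. The scGRO-seq batches had 1.25 to 13.6 CPM with a median of 2.58. The log2 level was 2.13 ± 0.50 higher in AGTuC than in inAGTuC (limma adjusted p = 0.0137) and 2.56 ± 0.33 higher than in scGRO-seq (limma adjusted p = 3.32e-05), and the groups did not overlap. Without either AGTuC library the first of these calls was lost, with the log2 difference at 2.34 and 2.09 (limma adjusted p = 0.0665 and 0.129).

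These 2 genes were the only members called in the body, out of 4 that passed the filter on low counts against inAGTuC and 3 against scGRO-seq. Of all genes, 13.5% of 12334 were called higher in AGTuC than in inAGTuC and 16.9% lower, and 27.4% of 9548 were called higher than in scGRO-seq and 24.5% lower. The filter keeps a gene through the group where it is high, so the count is no measure of the members as a whole. Srf was 1.15 ± 0.40 higher in AGTuC than in inAGTuC (limma adjusted p = 0.0536) and 0.39 ± 0.44 higher than in scGRO-seq (limma adjusted p = 0.480). It was called higher than in scGRO-seq once stacks of scGRO-seq reads, described below with the exons, were left out (0.72 ± 0.28, limma adjusted p = 0.0331), and higher than in inAGTuC with all deposited reads (limma adjusted p = 0.0468), without TMM scaling (limma adjusted p = 0.0337) and without a filter (limma adjusted p = 0.0399). Atf3 was 0.25 ± 0.63 higher than in inAGTuC (limma adjusted p = 0.795). When all 7 members were tested without a filter, 4 were called in each comparison, beside 43.2% of 21660 genes against inAGTuC and 56.4% of 22137 against scGRO-seq called in either direction, and Fos was lower in AGTuC (log2 -3.12 against inAGTuC with adjusted p = 0.00987, and -2.19 against scGRO-seq with adjusted p = 0.039, in limma).

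Fos was the member with less body signal in AGTuC. Its AGTuC libraries had 0 and 6 body UMIs, where 3 UMIs of replicate 1 would be 1.34 CPM, and 1.26 CPM was measured in replicate 2. The inAGTuC libraries had 2, 6, 9 and 2 UMIs, or 3.21, 7.30, 6.16 and 1.37 CPM. All 4 lay above both AGTuC libraries, and the pooled body was 5.07-fold higher in inAGTuC. In these libraries, however, the antisense strand of the Fos body held 14 UMIs against 19 sense UMIs, while it held 0 against 6 in AGTuC. In scGRO-seq there were 11 antisense against 20 sense UMIs. What part of the inAGTuC and scGRO-seq body counts of Fos is background was not tested. How many of all genes had both AGTuC libraries below all inAGTuC libraries in the body was not counted. Of the genes tested there, 16.9% were called lower in AGTuC.

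Of the 7 members 5 had both AGTuC libraries above all inAGTuC libraries in the body (Jun, Junb, Egr1, Ier2 and Srf), and 3 had them above all scGRO-seq batches (Jun, Junb and Ier2), against 28.3% and 17.9% of genes with at least 10 body UMIs. The pooled fold over inAGTuC was 25.3 for Ier2, 5.36 for Junb, 3.54 for Jun, 2.76 for Srf, 2.32 for Egr1 and 1.22 for Atf3. Atf3 overlapped between the assays.

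Per kb of body, the order of the mean levels was not the same in each assay, and it was not tested in AGTuC or inAGTuC. In AGTuC it was Ier2 at 89.3 ± 15.7 CPM per kb (mean ± SD, n = 2), then Junb at 16.96 ± 1.76, Jun at 2.66 ± 0.223, Egr1 at 2.49 ± 0.772, Srf at 2.10 ± 0.337, Atf3 at 0.458 ± 0.0407 and Fos at 0.219 ± 0.309. Ier2 was at the 99.99th percentile of genes per kb and Junb at the 99.4th percentile in AGTuC, while Fos was at the 50.9th. In inAGTuC the means were 4.05 ± 2.72 for Junb, 3.91 ± 4.61 for Ier2, 1.56 ± 0.939 for Fos, 1.07 ± 0.5996 for Egr1, 0.831 ± 0.735 for Jun, 0.735 ± 0.267 for Srf and 0.389 ± 0.249 for Atf3 (n = 4). By these means Fos moved from last place in AGTuC to place 3 in inAGTuC. That place rests on 19 sense UMIs beside 14 antisense UMIs.

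In scGRO-seq the level was 3.51 ± 2.67 CPM per kb of body for Ier2, 3.13 ± 2.73 for Junb, 1.39 ± 1.18 for Egr1, 1.20 ± 0.908 for Srf, 0.603 ± 1.09 for Atf3, 0.570 ± 0.467 for Fos and 0.457 ± 0.428 for Jun (mean ± SD over 10 batches). Of the 6 pairs of neighbours in this order 0 differed beyond the spread between batches, with p of 0.160 to 0.939 in exact two-sided sign-flip tests over the batches (0.727 to 0.939 after Benjamini-Hochberg adjustment over the 6 pairs). Neighbours are the closest pairs of an order set by the same values, which favours small differences. Pairs further apart in this order were not tested. All 7 were above the silent olfactory receptor genes, whose 291 members had 0.0472 CPM per kb in scGRO-seq, 0.0501 in inAGTuC and 0.00666 in AGTuC. That level is no measure of the background at the members themselves. In scGRO-seq the antisense strand of the Jun body held 16 UMIs against 19 sense UMIs, and that of Fos 11 against 20. The Atf3 level rests on batch Exp208. Without that batch it was 0.267 ± 0.230 CPM per kb (n = 9), last of the 7 genes, and Srf and Atf3 did differ. These 2 genes were then no longer neighbours in the order. With stacks of reads left out in all 10 batches, Atf3 was also last, at 0.324 ± 0.250.

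**Figure D4:**
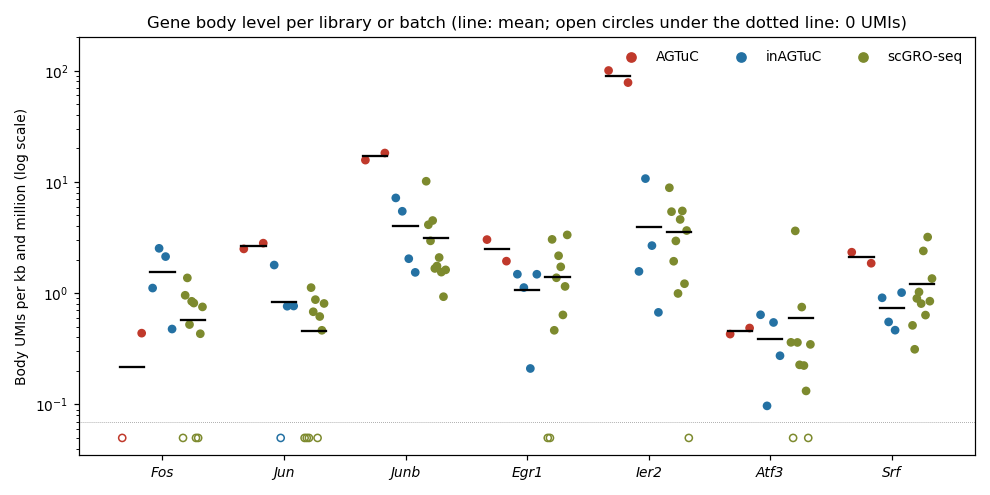
Sense CPM per kb of gene body, on a log scale, with a dot per library or batch, a line at the mean and open circles under the dotted line for values of 0. Ier2 and Junb in AGTuC stand above all inAGTuC and scGRO-seq values of the same gene, and Fos is the gene whose mean is lowest in AGTuC.

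In scGRO-seq, Junb was the member whose sense body reads stood most steadily above the antisense strand. It had 32 sense and 9 antisense UMIs, and its sense level was higher in 10 of 10 batches, by 4.00 ± 3.81 CPM (mean ± SD). Srf had 143 sense and 53 antisense UMIs, or 89 sense UMIs without a stack of reads in batch Exp260b, and was higher in 7 batches with or without it, but its deepest batch, Exp236, had 35 sense and 40 antisense UMIs. Sense exceeded antisense in 7 batches for Atf3 (6 without its stack), in 6 for Fos and Ier2, in 5 for Jun and in 4 for Egr1. With stacks kept, the strands were equal in 4 batches for Egr1, in 2 for Jun and Ier2 and in 1 for Fos and Atf3. For these genes the strands were thus not apart in every batch.

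Past the gene end polymerases continue until they terminate, and this stretch was dense at Ier2 and Junb. Ier2 had 291 and 684 UMIs in the 5 kb past its end in the AGTuC libraries, or 130 and 144 CPM, against 2, 6, 10 and 1 in inAGTuC. Junb had 122 and 226 in AGTuC (54.7 and 47.5 CPM) against 6, 7, 4 and 4 in inAGTuC. Averaged over the whole 5 kb, this stretch was below the body in both AGTuC libraries. It was at 26.1 and 28.8 CPM per kb against 100.4 and 78.2 for Ier2, and at 10.9 and 9.50 against 15.7 and 18.2 for Junb. That mean does not describe the stretch just past the end. The first kb past Junb held 310 AGTuC UMIs, against 47 and 116 in its body of 1340 bp. For Ier2 it held 538, against 229 and 380 in a body of 1022 bp. The pooled level past the end was 32.04-fold higher in AGTuC than in inAGTuC for Ier2 and 10.3-fold for Junb.

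The reads past the end fell off within the first 2 kb in AGTuC. Junb had 310 UMIs in the first kb, 33 in the second and 4, 0 and 1 in the next. Ier2 had 538 and 313 in the first and second, then 20 and 18, and 86 in the fifth kb. All 8 UMIs of Fos lay in the first kb, as did 26 of the 29 UMIs of Egr1 and 12 of the 15 UMIs of Jun. In scGRO-seq the 28 UMIs past Junb were spread as 4, 8, 7, 4 and 5 over the 5 kb, and in inAGTuC the 21 UMIs as 5, 8, 7, 1 and 0.

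As a ratio to the body, the stretch past the end was called higher in AGTuC than in inAGTuC for 37.3% of 12155 genes and lower for 1.95% (limma, median log2 1.57). Of the 6 members tested 0 were called. Fos was at 2.61 ± 1.04 (limma adjusted p = 0.0552), Junb at 1.01 ± 0.64 (limma adjusted p = 0.207) and Jun at -1.22 ± 0.93 (limma adjusted p = 0.291), and 1 member had an unadjusted p under 0.05. Against scGRO-seq 27.6% of 13733 genes were higher and 2.51% lower (median 1.23), and 0 of 5 members were called, with Junb at 1.95 ± 0.78 (limma adjusted p = 0.057). Both values are near the threshold, and Junb was called under 6 alternatives of the second comparison, among them 2 kb in place of 5 kb. Between inAGTuC and scGRO-seq 0% of 12128 genes were called higher and 0% lower, with 616 at an unadjusted p under 0.05, and 0 of the 2 members tested were called. For body levels it was 0% of 7790 genes in each direction, with 481 at an unadjusted p under 0.05, and no member passed the filter there.

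Exons and introns of the body were compared in the 4 members with introns, since nascent RNA still holds introns. Egr1 had 31 exon and 21 intron UMIs in AGTuC, or 12.1 and 30.97 per kb, but 47 and 4 in scGRO-seq, or 18.3 and 5.90 per kb. On its antisense strand scGRO-seq had 12.4 and 7.37 per kb, so the strand that Egr1 does not use also had more reads on the exons. Srf had 17.8 per kb on exons and 11.5 on introns in AGTuC, and 27.6 and 8.41 in scGRO-seq. Without a stack of reads described next, its exons had 12.5 per kb in scGRO-seq. Atf3 had 5.18 and 2.96 per kb in AGTuC and 1.73 and 4.72 in scGRO-seq, with 3 exon UMIs, and its introns had 2.68 per kb in scGRO-seq without the stack there. Fos had 2 exon and 4 intron UMIs in AGTuC, or 1.10 and 3.75 per kb, and 13 and 7 in scGRO-seq, or 7.15 and 6.56 per kb, beside 3.30 and 4.69 on its antisense strand. In inAGTuC exons and introns had 4.28 and 4.42 UMIs per kb for Egr1 and 2.78 and 3.44 for Srf. There Atf3 had 1.73 and 1.67 per kb, and Fos 6.05 and 7.50.

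Part of the scGRO-seq signal of Srf and Atf3 stood at single positions. Such stacks were defined as at least 10 UMIs of 1 batch and strand, each within 3 bp of the next, and they held 7.34% (Exp246) to 43.7% (Exp260b) of the UMIs of a batch. In a coding exon of Srf, 54 of the 68 body UMIs of batch Exp260b lay at chr17:46549112-46549115, 7047 to 7050 bp after the start site. They came from 50 cells in 6 libraries with 48 UMI sequences, and 1 UMI was there in all other libraries. In an intron of Atf3, 22 of the 23 body UMIs of batch Exp208 lay at chr1:191173375-191173379, 9954 to 9958 bp after the start site, from 18 cells of 1 library with 22 UMI sequences. There too 1 UMI was found in all other libraries. Another stack was on the antisense strand of Junb at chr8:84978352 in batch Exp236, with 32 UMIs from 31 cells of 4 libraries. What made these stacks was not tested. The 30 bases around each sense stack are shown because a gene level in 1 batch rests on them, on the minus strand of GRCm38 at chr17:46549097-46549126 (Srf) and chr1:191173360-191173389 (Atf3), with the base where most UMIs end in capitals (21 UMIs for Srf and 13 for Atf3).
Srf: aggtggtgaacctgGatgccacccacagca
Atf3: gagttcaacagttcCcttcccttgttcaac

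Few single cells held a read of a member. Of the 2494 cells, which had 1264 to 51431 UMIs with a median of 3450, 429 had a sense UMI of at least 1 member in window, body or past the end (17.2%, 95% Wilson interval 15.8 to 18.7%). Over batches the share was 16.6 ± 7.60% (mean ± SD, n = 10), with a minimum of 7.92% in Exp156, a median of 16.6% and a maximum of 32.1% in Exp208. On the antisense strand of the same stretches it was 12.5% of cells, a measure of the background in a strand that the genes do not use. Antisense reads can also come from divergent or neighbouring transcription. In the body alone, 12.5% of cells had a sense UMI of a member and 5.93% an antisense UMI. Without the stacks the sense share was 14.6% and that of batch Exp208 was 20.1%.

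Srf had a read in the most cells, 150 (6.01%, 5.15 to 7.02%), against 2.09% on its antisense strand. Without its stack 101 cells (4.05%) remained. Ier2 followed with 79 cells (3.17%, 2.55 to 3.93%), Junb with 69 (2.77%, 2.19 to 3.49%) and Egr1 with 67 (2.69%, 2.12 to 3.40%), beside antisense shares of 3.21%, 3.69% and 1.96%. The shares of Ier2 and Junb were thus no higher than those of their antisense strands, and without the antisense stack Junb had 2.57% there. Atf3 had 54 cells (2.17%, 1.66 to 2.81%), or 36 (1.44%) without its stack, Jun 31 (1.24%, 0.877 to 1.76%) and Fos 26 (1.04%, 0.712 to 1.52%), beside 1.12%, 1.12% and 0.922% antisense. For Fos and Jun a share above that of the antisense strand was not detectable at this depth. In the body alone Junb had 31 cells (1.24%) in sense and 0.361% in antisense.

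Between batches the share of cells with a Srf read ran from 0.990% in Exp156, with a median of 1873 UMIs per cell, to 12.2% in Exp260b, with a median of 4086, where it was 2.85% without the stack. The highest share without the stack was 9.68%, in Exp246. For Junb it ran from 1.08% (Exp246) to 4.59% (Exp236) and was above 0 in 10 of 10 batches, whereas Fos was at 0 in 3 batches and Jun in 4. After thinning each cell to 1000 UMIs, 4.34% of cells had a member read in sense and 2.74% in antisense. At that depth Srf had 1.36% and 0.400%, Egr1 0.680% and 0.381%, Ier2 0.762% and 0.641%, Junb 0.657% and 0.680%, and Fos 0.208% and 0.165%.

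Of 476 combinations of a member and a cell with a read, 456 (95.8%) had 1 UMI, and the maximum was 3. Only 1 member was seen in 390 cells, 2 members in 31 and 3 in 8. The counts were thus at 1 molecule in nearly all cells, and levels in single cells were not compared.

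**Figure D5:**
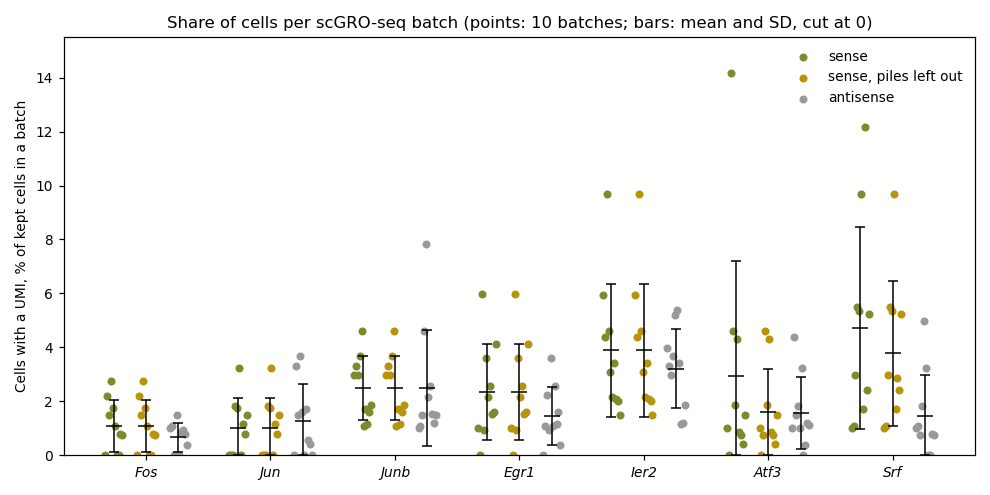
Cells with at least 1 UMI of each gene as a percentage of the kept cells of a scGRO-seq batch, with a point per batch for sense reads, antisense reads and sense reads after removal of the stacks, and bars for the mean and SD over the 10 batches. Srf in Exp260b (12.2%) and Atf3 in Exp208 (14.2%) stand out among sense reads, and Ier2 and Junb lie at the level of their antisense reads.

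The other immediate early genes, 45 in a list chosen together with the members, were read first in the body. The filter kept 28 of the 45 against inAGTuC and 15 against scGRO-seq, and it favours genes that are high in AGTuC, so the counts say nothing of the list as a whole. Between AGTuC and inAGTuC 14 of the 28 were called higher and 1 lower, beside 13.5% and 16.9% of all genes. The 5 genes of the list with the most AGTuC body UMIs are given, a choice that favours genes high in AGTuC. Sgk1, a kinase gene induced by serum, was 1.70 ± 0.32 higher (limma adjusted p = 0.00745), with a pooled body level of 185 CPM in AGTuC and 45.8 in inAGTuC. Jund, a Jun family member, was 3.84 ± 0.77 higher (limma adjusted p = 0.00849), Errfi1, an inhibitor of the EGF receptor, 3.26 ± 0.38 (limma adjusted p = 0.00215), Mcl1, a survival gene of the Bcl2 family, 1.57 ± 0.44 (limma adjusted p = 0.0253) and Socs3, an inhibitor of cytokine signalling, 3.23 ± 0.45 (limma adjusted p = 0.0028). The gene that was lower was Fosl2, a Fos family member, at -1.53 ± 0.49 (limma adjusted p = 0.0388). Against scGRO-seq 13 of the 15 were higher and Fosl2 lower, beside 27.4% and 24.5% of all genes.

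In the ratio of window to body, 7 of 35 tested were higher in AGTuC than in inAGTuC (against 46.5% of all genes), namely Arc, Dusp1, Dusp5, Ier5, Nr4a2, Plk2 and Plk3, and the median log2 difference was 1.12 against 2.18. Against scGRO-seq 12 of 39 were higher (30.8%, against 50.1%) and Jund was lower, at -7.23 ± 1.00 (limma adjusted p = 5.49e-06), with 1 window UMI in AGTuC and 17 in scGRO-seq. The body of Jund had 881 AGTuC UMIs. Errfi1 had 0 AGTuC UMIs in the window beside 697 in the body, and Sgk1 had 10 beside 1293. Whether the windows of these genes hold the start site in use was not tested. Nr4a2, an orphan nuclear receptor, rose by 4.06 ± 0.96 against inAGTuC (limma adjusted p = 0.00255). Past the end 10 of 34 were higher than in inAGTuC (29.4%, against 37.3% of all genes), and 9 of 37 were higher (24.3%, against 27.6%) and 2 lower (5.41%, against 2.51%) than in scGRO-seq. Those lower were Ier5 (-2.88 ± 0.91, limma adjusted p = 0.0178) and Nr4a2 (-4.73 ± 0.89, limma adjusted p = 0.000358). Between inAGTuC and scGRO-seq 0 of 30, 30 and 4 genes of the list were called in window, past the end and body.

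The partners of SRF comprise Elk1, Elk3 and Elk4, its ternary complex factors, Mrtfa and Mrtfb, its actin-regulated coactivators, and the cofactor Fhl2. In the ratio of window to body 3 of 5 tested were higher in AGTuC than in inAGTuC (against 46.5% of all genes), Mrtfb by 4.22 ± 0.91 (limma adjusted p = 0.0015), Mrtfa by 3.90 ± 1.07 (limma adjusted p = 0.00657) and Elk1 by 2.54 ± 0.89 (limma adjusted p = 0.0239). Against scGRO-seq these 3 and Elk4 were higher (against 50.1% of all genes), by 2.12 ± 0.76 for Elk4 (limma adjusted p = 0.0209). In the body 1 of 6 was higher and 1 lower than in inAGTuC (13.5% and 16.9% of all genes), and 2 were higher and 3 lower than in scGRO-seq (27.4% and 24.5%). The body of Elk4 was 1.89 ± 0.35 higher than in inAGTuC (limma adjusted p = 0.00702) and 1.63 ± 0.22 higher than in scGRO-seq (limma adjusted p = 4.71e-05). Elk3 was 1.03 ± 0.40 higher than in scGRO-seq (limma adjusted p = 0.041). Fhl2 was -1.93 ± 0.60 against inAGTuC (limma adjusted p = 0.0373) and -2.74 ± 0.48 against scGRO-seq (limma adjusted p = 0.000381), with Mrtfa at -0.60 ± 0.21 and Mrtfb at -0.62 ± 0.18 in the latter (limma adjusted p = 0.0274 and 0.00988). Past the end Mrtfa and Mrtfb were higher in AGTuC than in inAGTuC, by 2.18 ± 0.74 and 2.51 ± 0.79 (limma adjusted p = 0.0282 and 0.0197), and than in scGRO-seq, by 3.45 ± 0.77 and 2.35 ± 0.68 (limma adjusted p = 0.00173 and 0.0107). Elk4 was lower than in inAGTuC there, at -1.97 ± 0.65 (limma adjusted p = 0.0243). Of all genes 37.3% were higher and 1.95% lower past the end than in inAGTuC, and 27.6% higher than in scGRO-seq. Between inAGTuC and scGRO-seq 0 of the partners tested were called.

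The genes whose body level was most like the mean of the members over the 16 libraries and batches, by Pearson's r of centred log2(CPM + 1) among 5931 genes, were 5031425E22Rik (0.849), Zfp217 (0.827), Sox2ot (0.813), Slc25a46 (0.808) and Acer3 (0.806). Each had a higher CPM in AGTuC than in the other assays, as in Sox2ot with 290 against 52.04 in inAGTuC and 49.1 in scGRO-seq. The choice favours this, since the members were themselves higher in AGTuC. Over the 10 scGRO-seq batches alone r was 0.513, 0.4656, 0.196, 0.648 and 0.818. The points share depth and assay, so these values describe the libraries and no p is given.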

How the data were processed

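The authors trimmed reads with cutadapt, mapped them to mm10 with Bowtie2 and removed duplicates with UMI-tools, per the labels, and versions are not given in the sources used here. They deposited 1 list of reads per library, 82 in all (2 AGTuC, 4 inAGTuC and 76 scGRO-seq) with 37537172 reads. The score deposited with each read is its mapping quality (3 to 44) and no measure of expression. Each entry was counted here as 1 UMI, on the strand opposite to the one given.

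Where several libraries held a read of equal position, strand, barcode and UMI, it was dropped from each of them. The scGRO-seq list Exp261_c16, a copy of an inAGTuC list for 99.72% of its reads, was not counted. Cells with at least 1000 UMIs and 750 genes with a UMI were used where a library had 24 of them or more, and summed per batch for the 10 batches of the study's UMI distribution. Start-site windows and bodies had 10 UMIs or more over the libraries compared.

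Ratios and levels were tested with limma 3.58.1 (voom, R 4.3.3) across all genes with Benjamini-Hochberg adjustment, a call needing an adjusted p under 0.05. Body counts were scaled by TMM factors and filtered on low counts by rules computed here. The plan named a negative binomial model, which was not run, and limma on the tallied UMIs took its place. Other steps used Python 3.11.15, numpy 2.4.6, scipy 1.17.1 and pandas 2.3.3. UMI totals per library set the precision, and intervals are 95% Wilson intervals that cover counting error only.

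The members, lists and tests were chosen with earlier results of these data known. Named genes are the members, the 5 genes of each list with most AGTuC body UMIs, genes counted in groups of 5 or fewer, and the 5 genes most like the mean of the members (at least 200 scGRO-seq body UMIs). Alternatives covered the reads and cells counted, windows, filters, scaling, the model, leaving out each AGTuC or inAGTuC library in the fits and leaving out each batch for the share of cells and the order of levels. Stacks of reads, the strand comparison and the batch block were examined after the data had been seen.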

Additional observations from a re-analysis of the deposited data

Results flagged for a closer look

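A sample was far from the rest of its group in 3 of 22 groups of samples examined. The rule sets apart about 1 group in 20 by chance only where values share 1 spread and groups are independent. Low UMI counts from batches of unequal depth do not meet this, so 3 of 22 is no measure of an excess. The body of Junb had 10.1 CPM per kb in scGRO-seq batch Exp156, against 4.5005 in the next batch, and it rests on 3 UMIs of the batch with the fewest UMIs. The body of Atf3 had 3.63 CPM per kb in batch Exp208, against 0.7502 in the next, and 22 of its 23 UMIs there lie within 5 positions. The share of cells with an Atf3 read was 14.2% in batch Exp208, against 4.59% in the next batch, and rests on the same reads. The causes were not tested.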

How the results depend on the processing

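The count of members called was within 1.5 times its first value, and the share of cells within 1 SD between batches, under 139 combinations of a result and an alternative, and it moved under 26. The 139 include the comparisons of inAGTuC with scGRO-seq, where few or none of all genes were called under any setting. Most body-level alternatives there had 0 members to test, so their count could not change. The number 139 is thus no measure of how steady the AGTuC calls are. Directions did not reverse for any member called. Window over body against inAGTuC, 2 members called, gave 0 without AGTuC replicate 1, 1 (Fos) without replicate 2, and 0 to 3 over all libraries left out in turn. Against scGRO-seq, 3 members called, it gave 1 with all scGRO-seq batches and 1 with libraries in place of batches (Fos), and 1 without AGTuC replicate 1 (Junb), with 1 to 2 over the AGTuC libraries left out. Over the whole table these settings called 10.5%, 19.3% and 21.6% of genes, against 51.1%. Past the end against inAGTuC, 0 members called, it gave 1 with all deposited reads (Junb), 1 with 2 kb (Fos) and 0 to 1 over libraries left out (Fos without inAGTuC replicate 4). Past the end against scGRO-seq, 0 members called, it gave 1 (Junb) with all deposited reads, with UMIs of 1 barcode within 50 bp counted once, with cells of at least 1000 UMIs, with all barcodes, with 2 kb and without stacks of reads. Body levels against inAGTuC, 2 members called, gave 4 without a filter and 1 to 2 over libraries left out (Ier2 alone without either AGTuC library, with 3.97% and 0.731% of all genes called against 30.3%). Against scGRO-seq, also 2, it gave 4 without a filter, 1 with all batches and 1 with libraries in place of batches, where Junb was not tested. The share of cells with a member read, 17.2%, was 4.34% after thinning to 1000 UMIs, 12.5% in the body alone, 14.2% with cells of at least 1000 UMIs, 14.6% without stacks, 21.1% with all deposited reads and 16.2 to 18.2% over batches left out. In the order of levels, with 0 neighbours apart, 1 pair differed with cells of at least 1000 UMIs and with all barcodes (Junb and Egr1), with the start-site window added (Ier2 and Junb) and without stacks (Srf and Atf3), and 0 to 1 over batches left out. These pairs are neighbours in the first order. Srf and Atf3 were not neighbours in the order without stacks or in that without batch Exp208. Between inAGTuC and scGRO-seq 0 members were called under each alternative run. Within batch Exp208, which holds libraries of both assays, 310 genes could be tested for the window, 696 past the end and 5905 for the body, with 1, 2 and 0 members among them. With batch as a block over the libraries of Exp208 and Exp261, the batches with both assays once libraries with under 24 cells, such as that of Exp234, were left out (3 inAGTuC and 4 scGRO-seq libraries, chosen after seeing the data), 949, 2303 and 4687 genes were tested, with 2, 2 and 0 members, and 0 members were called. AGTuC shares no batch with another assay. The Wald test of DESeq2 was not run. Depth limits every scGRO-seq value of a member.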
